A study of Mus musculus with 2 samples.

Results

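The 10 genes described here mark neutrophils and were followed through the immune cells of the injured neonatal heart: the calprotectin genes S100a8 and S100a9, the stefin genes Stfa1, Stfa2, Stfa2l1, Stfa3 and Cstdc4, and the granule genes Lcn2, Camp and Ngp. They are 10 of the 32285 genes in the count tables, and all 10 were found by symbol. They were chosen by their UMI levels in these same libraries, so the levels are given as a description with no test. The measurement is single-cell RNA sequencing with 10x Genomics 5′ chemistry. Live (7-AAD negative) CD45+ cells came from neonatal mice aged 9 days. Myocardial infarction (MI) had been induced on day 2 after birth (P2), so hearts were taken 7 days after the injury. There was a WT library from 5 pooled hearts and a Lyve1 KO library from 5 pooled hearts. The knockout is global, so the hyaluronan receptor LYVE-1 is lost from lymphatic endothelium and macrophages alike, and the strain of these hearts is not given in the sources used here. With 1 library per genotype, and its hearts not told apart here, no difference between genotypes could be tested. The intervals below are 95% Poisson (counts) or Clopper-Pearson (shares) intervals that cover counting error only.

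Neutrophils are short-lived cells that leave the bone marrow with most of their proteins already made. Their specific granules are filled during the myelocyte and metamyelocyte stages, with lactoferrin (Ltf), lipocalin 2 (Lcn2), the cathelicidin Camp and the neutrophilic granule protein Ngp, and transcription of these genes ceases before the cell matures. S100A8 and S100A9 form calprotectin, a cytosolic calcium- and zinc-binding complex that acts as an alarmin when released, and stefins are cytosolic inhibitors of cysteine proteases such as the cathepsins. Monocytes that have recently left the bone marrow also carry S100A8 and S100A9.

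By Ensembl identifier in GENCODE vM21 (GRCm38), S100a8 (ENSMUSG00000056054) lies at chr3:90668978-90670035 on the plus strand and S100a9 (ENSMUSG00000056071) at chr3:90692632-90695721 on the minus strand. The stefins lie together on chromosome 16: Stfa2l1 (ENSMUSG00000059657) at chr16:36156811-36161953, Cstdc4 (ENSMUSG00000079597, named Gm5483 there) at chr16:36184212-36188111 and Stfa1 (ENSMUSG00000071562) at chr16:36276951-36285373 on the plus strand, Stfa2 (ENSMUSG00000022902) at chr16:36403992-36408457 and Stfa3 (ENSMUSG00000054905) at chr16:36450537-36455392 on the minus strand. Lcn2 (ENSMUSG00000026822) lies at chr2:32384633-32388252 on the minus strand, and Camp (ENSMUSG00000038357) and Ngp (ENSMUSG00000032484) at chr9:109847379-109849617 on the minus and chr9:110419747-110423012 on the plus strand. The stefins are near-identical copies in part: of all 90-base stretches of its annotated transcripts, Stfa1 shared 6.48% with another gene (Cstdc5), Cstdc4 4.09% (first Csta2), Stfa2l1 2.42% (Stfa2), Stfa2 2.09% (Stfa2l1) and Stfa3 0%. Of all 50-base stretches, Stfa1 shared 22.5%, Stfa2l1 24.6%, Stfa2 15.9%, Cstdc4 10.98% and Stfa3 0%. Reads from such shared stretches could be lost or split, so the stefin values other than those of Stfa3 are uncertain. These shares do not limit the size of that uncertainty, which was not tested.

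The stefins also share their start regions, which are shown because the copies differ in where they were detected. Over the 250 bases before the RefSeq start, the 5 stefins were between 68.2% (Stfa3 and Cstdc4) and 89.4% (Stfa2 and Stfa2l1) identical in pairwise alignment. The regions printed are those of Stfa3, which with Stfa1 was a stefin found in classical monocytes as well as in neutrophils, and of Stfa2l1 and Cstdc4, which were low outside neutrophils. They are from RefSeq, build GRCm38.p6, at chr16:36455393-36455642 (minus strand), chr16:36156561-36156810 (plus strand) and chr16:36183962-36184211 (plus strand), and hold no annotated exon of their gene. Capitals mark the TATA-like box TTTAAA. They also mark, on either strand (both motifs were searched on both), the core GAGGAA of the motif of the myeloid factor PU.1.
Stfa3: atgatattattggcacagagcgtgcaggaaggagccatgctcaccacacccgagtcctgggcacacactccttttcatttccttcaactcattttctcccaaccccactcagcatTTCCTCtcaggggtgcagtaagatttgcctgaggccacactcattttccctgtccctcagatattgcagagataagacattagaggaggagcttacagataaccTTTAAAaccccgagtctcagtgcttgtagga
Stfa2l1: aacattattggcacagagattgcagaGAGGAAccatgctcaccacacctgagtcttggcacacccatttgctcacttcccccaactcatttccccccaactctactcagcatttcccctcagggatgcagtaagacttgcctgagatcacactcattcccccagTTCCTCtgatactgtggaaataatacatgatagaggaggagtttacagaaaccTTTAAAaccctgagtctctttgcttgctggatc
Cstdc4: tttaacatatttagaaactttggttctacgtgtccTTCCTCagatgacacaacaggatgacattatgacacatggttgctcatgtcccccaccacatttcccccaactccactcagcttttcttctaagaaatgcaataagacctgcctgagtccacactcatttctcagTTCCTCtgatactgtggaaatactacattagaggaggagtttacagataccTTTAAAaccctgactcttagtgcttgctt
All 5 stefins held TTTAAA, with its last base 24 to 28 bases before the start, against 12.1% of 32851 such regions in the table and 0 of the other 5 genes. All 5 also held GAGGAA, against 2 of the other 5 genes (S100a8 and Lcn2) and 23.3% of all regions. The motif TTGCNNAA, a core of C/EBP sites, was found for 4 of the 10 genes (S100a9, Stfa1, Lcn2 and Ngp) and in 9.56% of all regions. Such matches describe the letters of these windows only.

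After the limits on cells, 4187 WT and 3391 KO cells were kept, with medians of 11104 and 12909 unique molecular identifiers (UMIs, which count single RNA molecules). Lyve1 was at 248 CPM (UMIs of the gene, scaled to a fixed total of UMIs of the same cells) in the WT library and 13.2 CPM in the KO library, as labelled. Cells were clustered again without these 10 genes as features, and clusters were named by markers other than these genes. Neutrophil-like cells were 351 of the WT cells (8.38%, 7.56 to 9.26) and 335 of the KO cells (9.88%, 8.89 to 10.9). They carried the neutrophil markers: 11 (WT) and 12 (KO) of 14 were in at least 25% of the cells, and none was at 0. Classical monocyte-like cells numbered 246 (WT) and 253 (KO), non-classical monocyte-like cells 260 and 305, and lymphocyte-like cells (B, T, NK and innate lymphoid) 911 and 1084. The libraries shared 9 barcodes, of which 3 were kept in both (6 cells, 1 of them neutrophil-like).

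The 10 genes made up 16.6% of all UMIs of WT neutrophils and 20.3% of those of KO neutrophils. In single neutrophils the share ranged from 0% to 46.6% with a median of 12.1% in the WT library, and from 0% to 43.1% with a median of 16.5% in the KO library. The libraries overlapped over most of this range. S100a8 was at 41687 CPM in WT neutrophils (41450 to 41926) and 54930 CPM in KO neutrophils (54666 to 55195). S100a9 was at 55537 and 68267 CPM. Both were found in 96.9% of the WT and 99.0% of the KO neutrophils once each cell was thinned to 3300 UMIs.

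Of the stefins, Stfa1 was at 21909 CPM (WT) and 25782 CPM (KO), Cstdc4 at 13663 and 13942 CPM, Stfa2l1 at 8202 and 9271 CPM, and Stfa2 at 8068 and 8912 CPM. These 4 were each found in 92.9% to 98.2% of the thinned neutrophils of either library. Stfa3, at 3015 and 3729 CPM, was found in 54.9% and 68.1%. The granule genes were the most uneven. Lcn2 was at 2806 CPM (WT) and 3239 CPM (KO) and was found in 43.3% and 41.2% of the thinned cells. Ngp was at 7448 and 9932 CPM but in only 11.04% and 17.6% of the thinned cells, and Camp at 3990 and 4688 CPM in 8.28% and 11.8%.

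**Figure D1:**
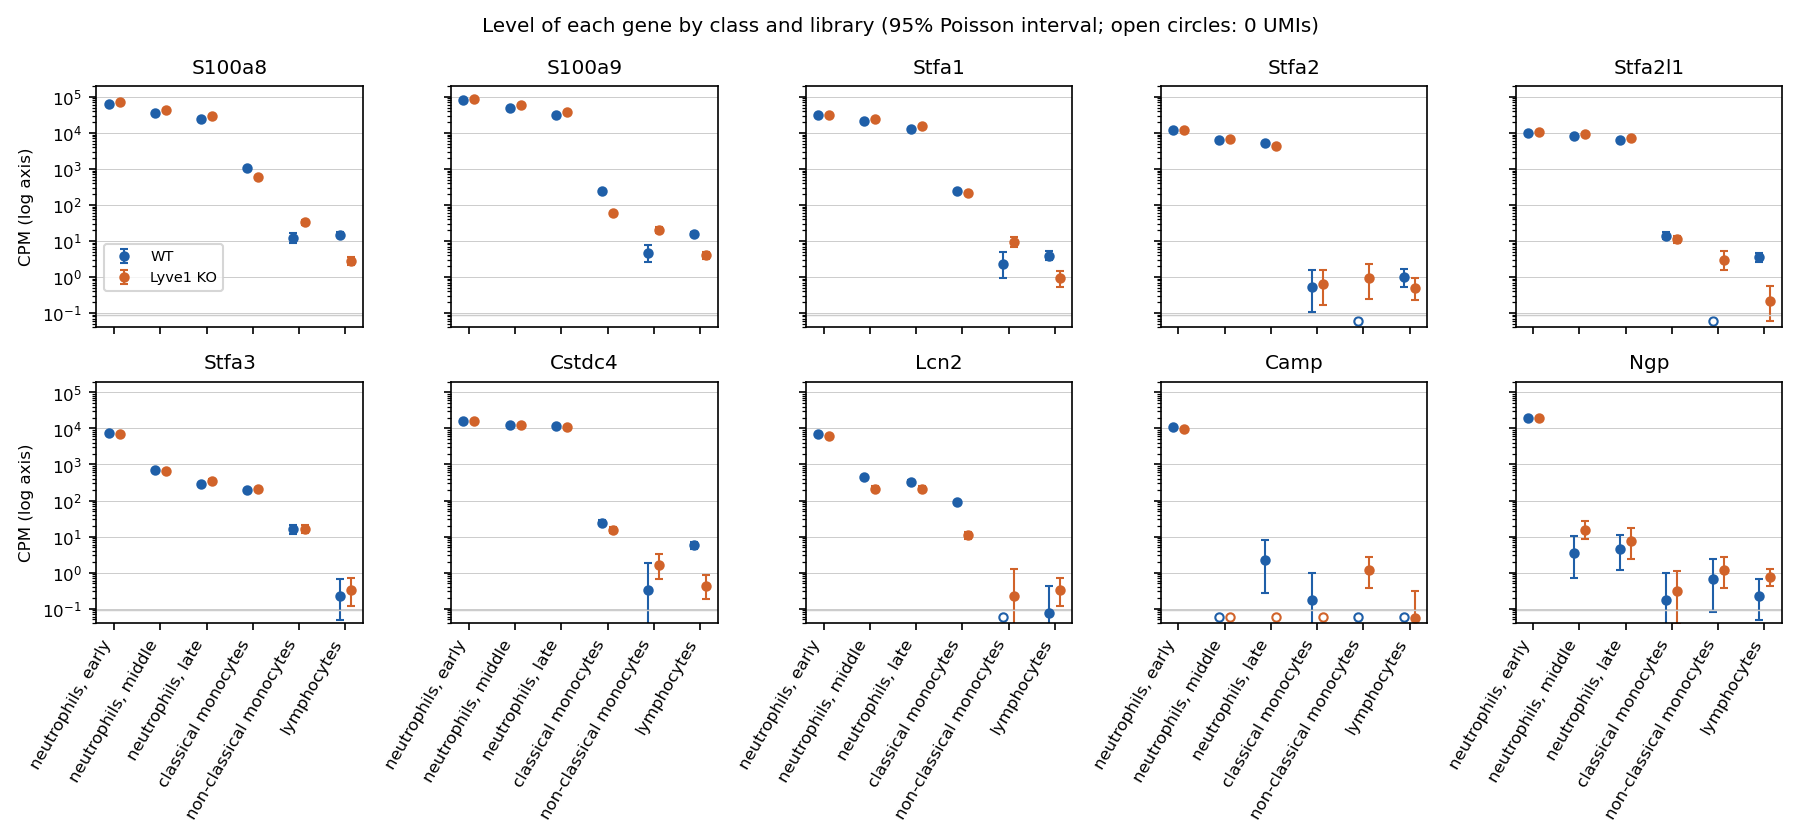
Level of each of the 10 genes (CPM of the summed UMIs, log axis) in the early, middle and late ranges of neutrophils, in both kinds of monocyte and in lymphocytes, for the WT library (blue) and the Lyve1 KO library (orange). Bars are 95% Poisson intervals, cut at the lower edge of the axis, and open circles under the grey line are classes with 0 UMIs. Every gene is highest in the early range of neutrophils, and Camp and Ngp are near or at 0 UMIs in all later classes.

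Maturity was scored per neutrophil as the UMIs of a late gene list (12 genes such as Il1b, Csf3r, Il1r2 and Mxd1) as a share of the UMIs of that list and an early list (16 genes such as Ltf, Anxa1, Mmp8 and Ifitm6). Neither list holds any of the 10 genes. The early list does hold other specific granule genes, among them Ltf. A fall of Lcn2, Camp and Ngp along the score is therefore not independent of the score. The cells of both libraries together were cut into 3 ranges of equal size at scores of 78.2% and 90.6%. These are ranges of a score and not cell types, with 90 WT and 76 KO cells within 2 percentage points of a cut. The early range held 96 WT and 130 KO cells, the middle range 119 and 107, and the late range 134 and 92. The median score was 88.2% in the WT and 83.9% in the KO library, so the KO library's neutrophils lay somewhat earlier on this scale. Of the 12 late-list genes, Ccrl2 (730 and 335 CPM) and Csf1 (704 and 335 CPM) were past 2-fold lower in KO neutrophils. Median log2 ratios, KO over WT, were -0.44 for the late list, 0.22 for the early list and 0.05 for another late list of 9 genes. Whether the lower score reflects less mature cells or lower levels of single late-list genes was not tested.

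All 10 genes were lower in the late than in the early range in both libraries. Of the 2441 genes with enough UMIs, 21.1% were lower in both libraries, and 3.28% were past 2-fold lower in both. Over the whole early range, the size of the fall separated the genes into 3 patterns, given as log2 ratios of CPM + 10.

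Ngp and Camp were found almost only in the early range. Ngp went from 20132 CPM in the early range to 3.44 CPM in the middle and 4.39 CPM in the late range of the WT library, and from 19890 to 15.6 and 7.44 CPM in the KO library. The late values rest on 4 WT and 5 KO UMIs in all. Camp, the precursor of the antimicrobial cathelicidin peptide, was at 10787 CPM (WT) and 9394 CPM (KO) in the early range, and had 0 UMIs in the middle range of either library. In the late range it had 2 UMIs in the WT library, a ratio of 0.000203 to the early level (2.46e-05 to 0.000735). It had 0 UMIs in the late range of the KO library, which is at least 2104-fold lower than in the early range at a floor of 3 counts. At the same floor of 3 counts, 0 of 92 cells allows a share of cells with a Camp UMI of up to 3.26%.

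Stfa3 and Lcn2 fell strongly but stayed detectable. Stfa3 went from 7338 CPM in the early range to 685 CPM in the middle and 280 CPM in the late range of the WT library, and from 6952 to 665 and 341 CPM in the KO library (log2 ratios of late over early of -4.66 and -4.31). It was still found in 34.4% (WT) and 42.4% (KO) of the thinned late cells. Lcn2, which binds bacterial siderophores, went from 6928 to 442 and 336 CPM in the WT library and from 6277 to 214 and 213 CPM in the KO library (log2 ratios -4.33 and -4.82), and was found in 30.3% and 22.4% of the thinned late cells.

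The other 6 genes were lower in the late range but remained abundant. S100a8 went from 62714 CPM (early) to 35480 CPM (middle) and 23574 CPM (late) in the WT library, and from 71963 to 44493 and 30251 CPM in the KO library (log2 ratios of late over early -1.41 and -1.25). S100a9 followed with log2 ratios of -1.43 and -1.19, and Stfa1 with -1.27 and -0.999. Stfa2 had log2 ratios of -1.12 and -1.49. The smallest differences were those of Stfa2l1 (-0.68 and -0.55) and Cstdc4 (-0.49 and -0.60). Cstdc4 was at 16469 CPM in the early and 11709 CPM in the late range of the WT library and at 16360 and 10769 CPM in the KO library, and was found in 99.2% and 100% of the thinned late cells.

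**Figure D2:**
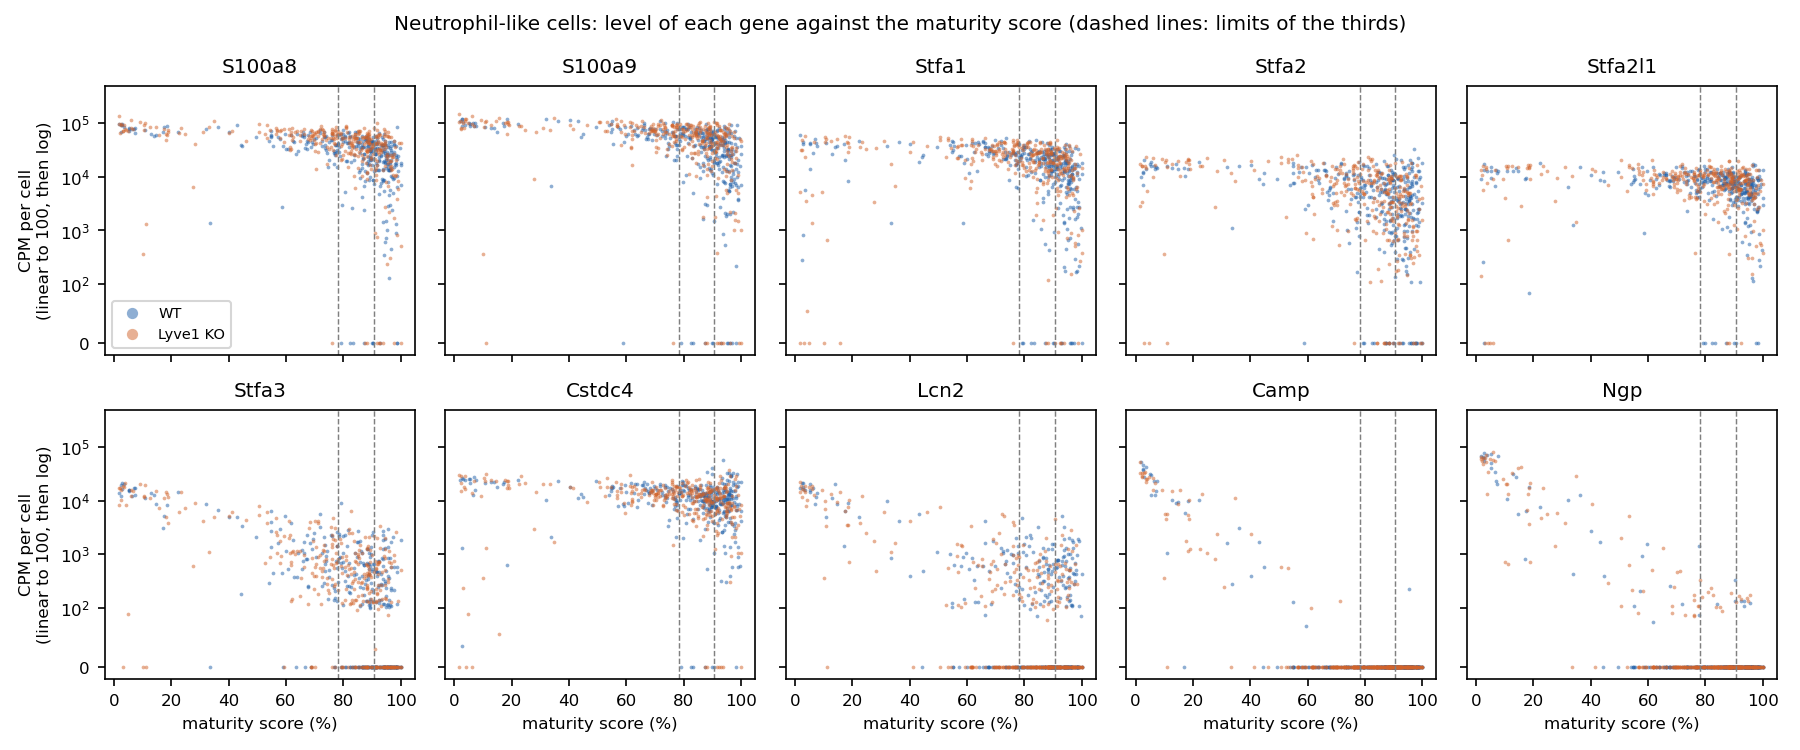
Level of each gene in single neutrophil-like cells (CPM of that cell, linear up to 100 and logarithmic above) against the maturity score of the cell (%), with WT cells in blue and Lyve1 KO cells in orange; dashed lines mark the limits of the 3 ranges at 78.2% and 90.6%. Camp and Ngp are at 0 UMIs in most cells with scores above 78.2%, Stfa3 and Lcn2 fall with a wide spread, and the other 6 genes stay abundant up to the highest scores.

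The clusters, made without these genes as features, showed how far the patterns rested on a few cells. A small cluster of 23 WT and 32 KO cells was led by Ltf, Cd177, Cstdc5 and Olfm4, with mean scores of 11.8% and 11.3%, and the 10 genes were 33.9% and 34.4% of its UMIs. It held 99.6% (WT) and 99.4% (KO) of all neutrophil Camp UMIs, 99.4% and 98.5% of the Ngp UMIs, 86.6% and 88.0% of the Lcn2 UMIs and 79.0% and 79.4% of the Stfa3 UMIs, against 32.5% and 35.1% of the S100a8 UMIs and 23.6% and 29.0% of the Cstdc4 UMIs. Its cells were deep, with medians of 23114 and 18426 UMIs against 7656 and 7977 for all neutrophils. Over all genes it held 495674 of the 2833256 UMIs of WT neutrophils and 691250 of the 3021807 UMIs of KO neutrophils. Without it the early range (73 WT and 98 KO cells) was still above the late range for all 10 genes in both libraries, with log2 ratios of late over early of -1.07 and -1.02 for S100a8, -2.56 and -2.44 for Stfa3, -0.99 and -2.25 for Lcn2, and -0.33 and -0.50 for Cstdc4. Those of S100a9 were -1.22 and -1.01 and those of Stfa1 -1.29 and -1.05. Those of Camp were -2.76 and -3.57 (40 WT and 89 KO early UMIs) and those of Ngp -3.91 and -4.95 (114 and 433 early UMIs). In the WT library Camp then lay near Stfa3, so the first and second patterns were not clearly apart there. The fall of Lcn2 in the WT library was then smaller than those of S100a8, S100a9 and Stfa1, so its place in the second pattern did not hold there.

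At the other end, a cluster of 79 WT and 40 KO cells was led by Acod1, Il1rn, Csf1, Csta2 and Slfn4, with mean scores of 93.6% and 93.0%. There the 10 genes were 6.26% (WT) and 7.96% (KO) of the UMIs. S100a8 was at 15005 and 20191 CPM and S100a9 at 15629 and 24259 CPM, against 39541 and 49504 CPM of S100a8 and 55792 and 63382 CPM of S100a9 in the main cluster (249 WT and 263 KO cells, led by Asprv1, Csta3, Cxcr2 and Retnlg). Cstdc4 was at 13603 and 12599 CPM against 12373 and 12857 CPM in the main cluster, and Stfa2 at 6547 and 5635 CPM against 6806 and 7774 CPM. The other stefins were lower there than in the main cluster by more than Stfa2 was. Stfa1 was at 6099 and 10197 CPM against 24141 and 26317 CPM, Stfa2l1 at 5153 and 5991 CPM against 8523 and 9351 CPM, and Stfa3 at 300.5 and 402 CPM against 899 and 1073 CPM. Lcn2 was at 304 and 295 CPM against 498 and 532 CPM. So within this late cluster the S100 genes, Stfa1, Stfa2, Stfa2l1, Stfa3 and Lcn2 were lower in both libraries, Stfa2 only slightly in the WT library. Cstdc4 was close to its level in the main cluster. UMIs of S100a8 per UMI of S100a9 were 0.805 and 0.847 in the early cluster, 0.709 and 0.781 in the main cluster and 0.960 and 0.832 in the late cluster.

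All 10 genes were higher in the KO than in the WT library over all neutrophils, by log2 ratios of 0.03 (Cstdc4) to 0.41 (Ngp) with a median of 0.23. For the granule genes these ratios include very rich single cells. In the KO library the cell richest in each gene held 6744 of 30013 Ngp, 3554 of 14167 Camp and 1732 of 9788 Lcn2 UMIs. The highest counts in a WT neutrophil were 2565, 1450 and 669. The median over all 4750 genes compared was -0.016. The share of all genes higher in the KO library was not counted, here or within the ranges and clusters. The 10 genes were counted in the same cells, so their directions are not 10 separate observations. None of the 10 was past 2-fold, and 0.926% of the 4750 genes compared were. Within the early range 5 were higher and 5 lower in the KO library (log2 ratios -0.20 to 0.20), and within the cluster led by Ltf 4 were higher and 6 lower (-0.16 to 0.12). In the main cluster all 10 were higher (0.06 to 1.59, median 0.19). Higher and lower were 6 and 3 in the middle range, 6 and 4 in the late range, and 6 and 4 in the cluster led by Acod1. Over all genes compared, the medians were -0.023 in the early range, -0.0079 in the cluster led by Ltf and -0.011 in the main cluster. None of the 10 was past 2-fold in the cluster led by Ltf, against 2.96% of all genes, or in the cluster led by Acod1, against 4.03%. In the late range S100a8 (0.36), S100a9 (0.32) and Stfa1 (0.31) were higher and Stfa2 (-0.32) and Lcn2 (-0.63) lower in the KO library. Past 2-fold within a range was Lcn2 alone, in the middle range at 442 CPM (WT) and 214 CPM (KO), a log2 ratio of -1.01, against 1.27% of the 2364 genes compared in that range (1.06% in the early and 2.05% in the late range). In the WT library 1 cell held 75 of these 385 UMIs, and without the cell with most Lcn2 UMIs in each library the log2 ratio was -0.96, short of 2-fold. In the main cluster Ngp was at 65.3 CPM in the WT and 216 CPM in the KO library (log2 ratio 1.59, against 0.411% of 3891 genes past 2-fold). There 5 cells held 96 of 119 WT and 349 of 448 KO UMIs, and without them Ngp was at 13.05 and 49.3 CPM (log2 ratio 1.36). The early range held 27.5% of the scored WT neutrophils and 39.5% of the scored KO neutrophils, and its part in the difference over all neutrophils was not tested.

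Classical monocytes carried some of these genes and not others. S100a8 was at 1035 CPM in the WT library (1009 to 1062) and 608 CPM in the KO library (589 to 627), Stfa1 at 247 and 216 CPM, and Stfa3 at 200 and 210 CPM. S100a9 was at 251 and 59.1 CPM and Lcn2 at 88.1 and 10.7 CPM. Cstdc4 (24.2 and 15.3 CPM) and Stfa2l1 (14.1 and 11.01 CPM) were low, and Stfa2 (3 and 4 UMIs), Camp (1 and 0 UMIs) and Ngp (1 and 2 UMIs) were close to absent. Every gene was lower than in neutrophils of the same library. Log2 ratios of CPM + 10, neutrophils over classical monocytes, ran from 3.85 for Stfa3 (WT) to 9.95 for S100a9 (KO). The added 10 CPM limits this ratio for genes close to absent from monocytes. As plain ratios of CPM in the KO library, S100a9 was at 1156, Stfa2 at 14374 (4 monocyte UMIs) and Ngp at 32038.5 (2 monocyte UMIs).

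The monocyte values were carried by cells in unequal ways. The 5 cells with the most UMIs of the 10 genes held 6426 of 10528 such UMIs in WT classical monocytes and 3141 of 7300 in KO classical monocytes, and 1 WT cell alone held 2799. In the WT library these 5 cells held 1331 of 1421 S100a9 UMIs and 3240 of 5859 S100a8 UMIs. The summed level of the 14 neutrophil markers in them was 1150 CPM in the WT and 851 CPM in the KO library, against 844 and 620 CPM in the other classical monocytes and 23708 and 22557 CPM in neutrophils. Ly6g, one of these markers, had 1 UMI in all WT and 3 UMIs in all KO classical monocytes, at or under a floor of 3 counts.

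Without these 5 cells per library, S100a8 was at 479 CPM (461 to 498) in WT and 360 CPM (345 to 375) in KO classical monocytes, Stfa3 at 142 and 167 CPM, and Stfa1 at 73.2 and 96.2 CPM. S100a9 was then at 16.5 and 21.3 CPM. UMIs of S100a8 per UMI of S100a9 were 29.1 (WT) and 16.9 (KO) in these cells, against 0.751 and 0.805 in neutrophils. Over all classical monocytes they were 4.12 (WT) and 10.3 (KO), so leaving out the 5 cells raised this ratio and turned the order of the libraries. S100a8 and S100a9 therefore differed in classical monocytes, in both libraries, by far more than in neutrophils. After thinning to 3300 UMIs, S100a8 was found in 33.2% (27.3 to 39.5) of 241 WT and 30.2% (24.6 to 36.2) of 252 KO classical monocytes, Stfa3 in 23.2% and 23.4%, Stfa1 in 9.96% and 11.1%, Lcn2 in 7.47% and 2.38%, and S100a9 in 4.56% and 3.17%. Without thinning, S100a8 was found in 57.7% of the WT and 50.6% of the KO cells.

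Lymphocytes, which should lack these transcripts, give the level that free RNA and doublets add in that class. Whether doublets with neutrophils were as frequent among classical monocytes was not tested. S100a8 was found in 0.940% of 745 WT and 0.896% of 1004 KO lymphocytes thinned to the same depth, S100a9 in 1.48% and 1.89%, Stfa1 in 0.403% and 0.598%, Stfa3 in 0.134% and 0%, and Lcn2 in 0% and 0.299%. Median depths before thinning were 10818 and 13275 UMIs in lymphocytes and 22701 and 24885 UMIs in classical monocytes. The shares of S100a8, Stfa3 and Stfa1 in classical monocytes were above these shares in both libraries beyond counting error. For S100a9 the intervals were 2.30 to 8.02% against 0.739 to 2.63% in the WT and 1.38 to 6.16% against 1.14 to 2.94% in the KO library. They overlapped, narrowly in the WT library, and the difference itself was not tested. In CPM, the 10 genes together reached 45.4 CPM in the lymphocytes of WT and 10.3 CPM in those of KO. A single WT cell, of 60561 UMIs and with B cell markers at 7876 CPM and neutrophil markers at 1701 CPM, held 526 of the 597 UMIs. Without the 5 cells with most such UMIs the levels were 4.29 (WT) and 8.10 CPM (KO). No UMI of the 10 genes was found in 94.0% of the WT and 90.6% of the KO lymphocytes.

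The make-up of the UMIs differed between the classes in the same way. S100a8 and S100a9 made up 25.1% and 33.4% of the UMIs of the 10 genes in WT neutrophils and 27.1% and 33.7% in KO neutrophils. In lymphocytes the shares were 33.2% and 34.5% in the WT and 27.4% and 38.4% in the KO library. In classical monocytes S100a8 made up 55.7% (WT) and 53.7% (KO), S100a9 13.5% and 5.22%, and Stfa3 10.7% and 18.6%, against 1.81% and 1.84% for Stfa3 in neutrophils. The WT lymphocyte make-up is mostly that of the 1 cell with 526 of 597 UMIs. Without the 5 cells, S100a8 gave 9 and S100a9 gave 20 of 56 UMIs in WT lymphocytes, and 37 and 60 of 149 UMIs in KO lymphocytes. S100a9 was thus the larger of the pair in neutrophils and lymphocytes of both libraries, and S100a8 the larger in classical monocytes.

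**Figure D3:**
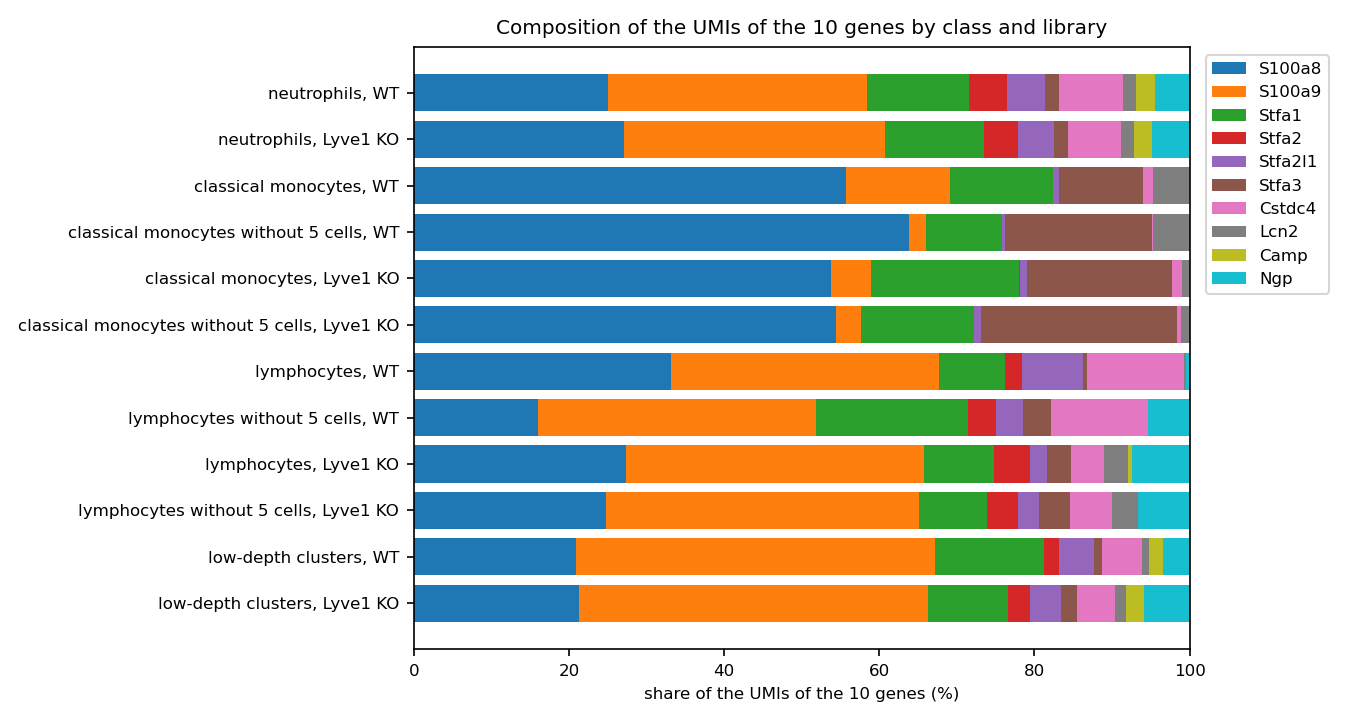
Share of each gene in the UMIs of the 10 genes (%), by class and library, with classical monocytes and lymphocytes also shown without the 5 cells that held most of these UMIs. Classical monocytes hold a large share of S100a8 (55.7% and 53.7%) and more Stfa3 (10.7% and 18.6%) than neutrophils do, with 13.5% (WT) and 5.22% (KO) of S100a9 that is smaller without the 5 cells, while lymphocytes and the unnamed clusters of low depth hold S100a9 as the largest share, as neutrophils do.

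Monocytes of both kinds together were past 2-fold above lymphocytes in both libraries for 4 of the 10 genes, S100a8, S100a9, Stfa1 and Stfa3, against 10.8% of 10253 genes. For classical monocytes alone there were 6, with Cstdc4 and Lcn2 in addition, against 9.80% of all genes. Without the 5 cells in either class there were the 4 named first. Non-classical monocytes were past 2-fold above lymphocytes in both libraries for Stfa3 alone, against 11.4% of all genes. Stfa3 was at 16.2 CPM (48 UMIs in 27 of 260 cells) in WT and 16.1 CPM (70 UMIs in 33 of 305 cells) in KO non-classical monocytes, against 0.228 and 0.325 CPM in lymphocytes. S100a8 was at 12.1 CPM in WT non-classical monocytes, below the 15.1 CPM of WT lymphocytes, of which 1 cell held 181 of 198 UMIs. Without the 5 cells in each class the order turned, with 5.21 CPM in WT non-classical monocytes and 0.690 CPM in WT lymphocytes. S100a8 was at 32.8 CPM in non-classical monocytes of the KO library, where 1 cell held 39 of 143 UMIs. The 5 cells with most UMIs of the 10 genes held 106 of them. Without the 5 cells in each class S100a8 was at 8.64 CPM in KO non-classical monocytes and 2.01 CPM in KO lymphocytes.

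Between the libraries, 2 of the 10 genes were past 2-fold lower in KO monocytes, S100a9 (log2 ratio -1.72) and Lcn2 (-2.04), against 0.234% of 8986 genes past 2-fold in either direction. The S100a9 value rested on single cells. Among classical monocytes without the 5 cells S100a9 was 16.5 CPM (13.2 to 20.2) in the WT and 21.3 CPM (17.8 to 25.2) in the KO library, and with doublets kept the log2 ratio over all monocytes was 0.0198. Lcn2 remained lower among classical monocytes without these cells, at 35.1 CPM (30.3 to 40.5) in the WT and 6.68 CPM (4.81 to 9.03) in the KO library, a log2 ratio of -1.44. S100a8 (-0.40), Stfa1 (0.35) and Stfa3 (0.22) were within 2-fold in those cells. These are values of 1 library each, and the hearts of each pool were not told apart here.

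**Figure D4:**
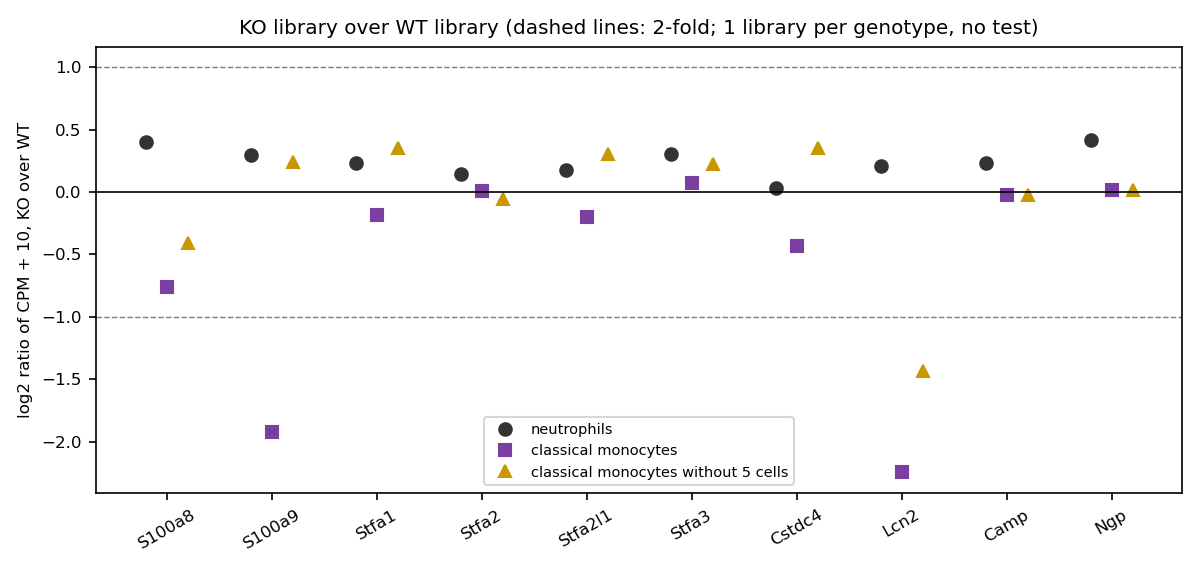
Log2 ratio of CPM + 10 in the Lyve1 KO library over the WT library for each gene in neutrophils (circles), classical monocytes (squares) and classical monocytes without the 5 cells of each library that held most UMIs of the 10 genes (triangles); dashed lines mark 2-fold. All circles lie between 0.03 and 0.41, S100a9 moves from below -1 to above 0 when the 5 cells are left out, and Lcn2 stays below -1.

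Other genes of the same pathways were compared from fixed lists. Of 10 specific granule genes, 9 had enough UMIs, and 1 of them, Fcnb, was past 2-fold higher in KO neutrophils (18.0 CPM in the WT and 86.7 CPM in the KO library). Of the 4 of these genes not used in the score, 3 (Pglyrp1, Olfm4 and Cybb) were past 2-fold lower in the late range in both libraries. Of all 4750 genes with at least 100 UMIs over neutrophils, 2.42% were. The early list of the score holds the specific granule genes Ltf, Chil3, Fcnb, Mmp8 and Cd177, so this count is not independent of the score. Pglyrp1, a peptidoglycan-binding protein, went from 4006 to 1781 CPM (WT) and from 3894 to 1759 CPM (KO). None of 6 azurophil granule genes reached 100 UMIs: Elane and Ctsg had 0 UMIs in neutrophils and Mpo 19 in both libraries together. Azurophil granules are filled at the promyelocyte stage, before specific granules.

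Of 9 gelatinase granule and surface genes none was past 2-fold between the libraries, and of the 8 free of the score only Lyz2 was past 2-fold lower in the late range. Of 11 other S100 genes 3 had enough UMIs and 0 were past 2-fold in either comparison. S100a11 stood at 6029 and 5483 CPM in the early and 4860 and 5135 CPM in the late range, and S100a6 at 3395 and 3587 CPM and 3291 and 3454 CPM, for WT and KO. S100a13, at far lower levels, was at 71.6 and 65.0 CPM in the early and 45.0 and 34.2 CPM in the late range (log2 ratios -0.57 and -0.76). S100a6 and S100a11 thus changed less than S100a8 and S100a9.

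Of 6 other stefin and cystatin genes in the tables, 4 had enough UMIs. Cstdc5 and Cstdc6 were past 2-fold lower in the late range in both libraries, Cstdc5 from 32265 to 8798 CPM (WT) and 32026 to 9406 CPM (KO). Cstb, the stefin of most cell types, was past 2-fold higher there, from 75.4 to 475 CPM (WT) and 54.4 to 214 CPM (KO), and was past 2-fold lower in KO neutrophils over all (255 and 106 CPM). Of 6 cysteine cathepsins with enough UMIs, the proteases that stefins bind, 4 (Ctsz, Ctsb, Ctss and Ctsc) were past 2-fold higher in the late range in both libraries and Ctsh past 2-fold lower. Of all 4750 genes with as many UMIs over neutrophils, 7.68% were past 2-fold higher and 2.42% past 2-fold lower in both. Ctsb went from 71.6 to 233 CPM (WT) and from 71.0 to 278 CPM (KO). None of the 6 was past 2-fold between the libraries. In macrophage-like cells Ctsb was at 3207 (WT) and 3093 CPM (KO). The summed level of 13 macrophage markers went from 74.4 to 325 CPM (WT) and from 96.8 to 272 CPM (KO) over the same ranges of neutrophils. In macrophage-like cells these markers were at 32606 and 27706 CPM. The part of macrophage RNA in the cathepsin values was not tested.

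Of 7 receptors of these proteins 2 had enough UMIs. Tlr4, a receptor for calprotectin, was at 53.4 CPM in the early and 398 CPM in the late range of the WT library and at 57.0 and 217 CPM in the KO library, while Bsg was within 2-fold. Of 6 transcription factors with enough UMIs none was past 2-fold between the libraries. Cebpe, needed for specific granule genes and part of the early list, went from 274 to 68.0 CPM (WT) and 308 to 62.5 CPM (KO). Cebpb was past 2-fold higher in the late range in both libraries, at 655 and 1904 CPM (WT) and 558 and 1896 CPM (KO).

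Across 11 classes in 2 libraries (22 points), with neutrophils split into the 3 ranges, the 5 genes most like S100a8 in log2(CPM + 10) among 13068 genes were Stfa1, S100a9, Csta2, Tnfaip6 and Arg2 (Pearson r 0.995 to 0.972). Those most like Stfa2l1 were Cstdc4, Cstdc5, Chil1, Csta3 and Nlrp12 (0.999 to 0.994), and those most like Ngp were Camp, Ltf, Aff2, Olfml2b and Tst (0.994 to 0.943). The points share libraries and free RNA and are dominated by the step from neutrophils to other classes, so these values are descriptions.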

How the data were processed

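The deposited files are raw counts: the authors counted UMIs per gene and cell barcode with Cell Ranger (version 8.0.1 per the submitters' processing notes, while the study's reporting summary names another) against the mm10 build of the mouse genome, and kept the barcodes that were called as cells. The tables hold 5713 WT and 5285 KO barcodes with 67968938 and 61555917 UMIs, and precision is limited by the UMIs of each class. The split of each pool into its hearts was not repeated here.

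The study's limits on cells were used: 500 genes and 250 UMIs as minima and a mitochondrial share of 30% as the maximum. For doublets, scrublet (scanpy 1.11.5) was run. Its automatic limit marked 1 WT and 4 KO cells, so the highest scores were left out at 0.4% per 1000 barcodes (98 WT and 73 KO cells). Libraries were log-normalized and integrated by CCA over 2000 variable genes in Seurat 5.3.0 (R 4.3.3), with cell cycle scores regressed out, and clustered on 30 dimensions (k = 20, resolution 0.8). Features excluded the 10 genes, other stefins, Lyve1 and 6 sex-linked genes. This gave 29 clusters. Names of the form "X-like" needed at least 3 markers of a list in at least 25% of the cluster's cells, and a cluster had no name where more markers of another list were among its 10 leading genes or, at low depth, fewer than 2 of its own. This scoring was set after the data were seen, and names may differ from the study's.

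CPM values are the UMIs of a gene in a class and library relative to that class's total in the library. To CPM, 10 was added before log2 ratios were taken, and the background of a comparison is every gene with 100 or more UMIs over both of its sides, in each library where both libraries are required. Past 2-fold means a log2 ratio of 1 or more in size. In a few places a class is given without the 5 cells with most UMIs of the 10 genes. Shares of cells with a UMI were taken after thinning to 3300 UMIs, the 10th percentile over neutrophil-, monocyte- and lymphocyte-like cells rounded down to a multiple of 100, and shallower cells were left out. Cells with fewer than 10 UMIs of the maturity lists (2 WT and 6 KO) had no score. With 1 library per genotype there are no replicates, and no p-value or standard error was made from cells.

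The 10 genes, the gene lists and the tests were chosen with earlier results of these data known. Named are all 10 genes, Lyve1 as a check of the labels, genes of each list with the highest UMIs in neutrophils, the 5 genes most like S100a8, Stfa2l1 and Ngp, genes that lead or mark a class, and list genes past 2-fold, the last chosen after their values were seen. Ratio and interval steps were tested on simulated counts. Promoters are from RefSeq (all 10 genes matched) and positions from GENCODE vM21, matched by Ensembl ID. Values were computed in Python 3.11.15 (scipy 1.17.1, pandas 2.3.3, numpy 2.4.6). Alternatives changed the limits on cells, doublets, clustering, the amount added before logs, the CPM denominator, the score and the cells left out.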

Additional observations from a re-analysis of the deposited data

Results flagged for a closer look

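Clusters of low depth that stayed unnamed (834 WT and 558 KO cells, with medians of 1278 and 926 UMIs per cell) are in no comparison above. UMIs of the 10 genes were at 2105 CPM there in the WT library and 5270 CPM in the KO library, above the 45.4 and 10.3 CPM of lymphocytes and below the 166326 and 202694 CPM of neutrophils. S100a9 made up 46.3% (WT) and 45.0% (KO) of these UMIs and S100a8 20.9% and 21.3%. Camp and Ngp, which were almost absent from middle and late neutrophils, made up 1.71% and 3.49% in the WT and 2.32% and 5.91% in the KO library. The KO library was higher only in the largest of these clusters (326 WT and 400 KO cells), where the 10 genes were 0.488% (WT) and 1.02% (KO) of UMIs. There 287 WT cells and 385 KO cells had an S100a9 UMI. In the cluster of 153 WT and 123 KO cells the 10 genes were 0.274% and 0.0769% of UMIs. They were 0.0722% and 0.00792% in that of 239 WT and 35 KO cells. A cluster of 116 cells was of the WT library alone. The libraries also differ in depth and in the cells of each cluster here, and the part of either in the values was not tested.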

How the results depend on the processing

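The cell limits, the doublet step, the features, integration and resolution of clustering, the amount added to CPM, the denominator and the richest cells were each changed. Under these settings 0 of the 10 genes were past 2-fold between the libraries in neutrophils, and 10 of 10 were lower in the late than in the early range in both libraries. The same 10 were found with another late list, with fixed limits of the score, with clusters in place of ranges and without the cluster led by Ltf, an alternative added after the data were seen. The count of genes past 2-fold higher in monocytes than in lymphocytes in both libraries went from 4 to 8 with doublets kept and to 7 with 1 CPM added in place of 10. The count past 2-fold between the libraries in monocytes went from 2 to 1 without the 1% of cells richest in UMIs of the 10 genes, and also to 1 in classical monocytes without the 5 cells with most, where Lcn2 was left. S100a9 in monocytes turned direction with doublets kept, to a log2 ratio of 0.0198. Over the alternatives run on whole classes its log2 ratio ranged from -2.20 to 0.0198 (0.24 in classical monocytes without the 5 cells), and that of Lcn2 from -2.98 to -1.28. Thinned to 1000 UMIs, the share of classical monocytes with an S100a8 UMI was 21.6% in the WT and 17.0% in the KO library, and that of WT lymphocytes 0.221%, so these shares are set by depth, while the order of the classes held. Of 690 values of single genes under 17 other settings, 472 moved by less than counting error and the rest by more. The sign changed in 23 of them, of which 22 had a reported value within 2-fold and 14 were library ratios in monocytes (Stfa1, for example, went from -0.27 to 0.36). With no minimum of UMIs, 70 of 14740 genes (0.475%) were past 2-fold in neutrophils and 21 of 17897 (0.117%) in monocytes. No paired analysis was possible because each genotype has 1 library. Depth limits Camp and Ngp in later neutrophils and Stfa2, Camp and Ngp in monocytes, which rest on a few UMIs.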

Other observations

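Classical monocytes with at least 1 S100a8 UMI (141 WT and 128 KO cells of at least 3300 UMIs, with medians of 23908 and 27305 UMIs) were set beside those without (100 WT and 124 KO cells, medians 21998 and 23562 UMIs), a split chosen after the data were seen. Beside other genes of the list, the 8016 genes ranked by the smaller of the 2 libraries' log2 ratios were led by Pclaf, a proliferation gene (27.1 against 0.966 CPM in the WT and 29.7 against 1.73 CPM in the KO library), the stefin Csta2, the neutrophil collagenase Mmp8 (151 against 35.7 and 135 against 37.1 CPM) and Fcnb. Vcan, a classical monocyte marker, was at 480 against 170 CPM (WT) and 385 against 129 CPM (KO). Stfa3 was at 300.0 against 27.5 CPM (WT) and 362 against 23.2 CPM (KO). Lowest in cells with S100a8 were genes of antigen presentation by MHC class II: H2-Aa was at 0.838 against 228 CPM in the WT and 1.96 against 103 CPM in the KO library, and Cd74 at 207 against 1475 and 155 against 1000 CPM. C1qb was at 34.1 against 94.6 CPM (WT) and 15.7 against 61.7 CPM (KO). These are values within each library, with no test.

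Stfa3 and S100a8 were also seen outside monocytes. Among macrophage-like clusters, the one led by Saa3, Marco and Prg4 (56 WT cells, 63 KO cells) had Stfa3 at 14.2 CPM (39 UMIs in 12 cells) in the WT and 25.5 CPM (90 UMIs in 16 cells) in the KO library, with S100a8 at 18.5 and 22.1 CPM.

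Single cells carried most UMIs of some stefins. In an unnamed cluster of 224 WT and 220 KO cells, led by Spp1, Mmp12 and Cd209a, 4 KO cells held all 300 UMIs of Stfa2, and 5 KO cells held 437 of 460 UMIs of Cstdc4.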
